A study of Mus musculus with 7 samples.

Results

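The chemokine ligands are small secreted or membrane-bound proteins that direct the movement of leukocytes, stem cells and stromal cells. They were taken as all probes whose gene name in the array files was Ccl, Cxcl or Cx3cl followed by a number and an optional letter a or b. This gave 46 probes of 34 genes, among 55681 probes of 34947 gene names on the array. The study, on dermal myogenic precursors and their origin from muscle satellite stem cells, measured RNA of 7 mouse cell populations, each on 1 Agilent expression array with a single colour channel. Per the labels, 8 to 10 animals were used per phenotype and 10 to 200 ng of RNA was labelled with a low-input kit; the labels do not say if an array held pooled animals.

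The Sdc4+ group held 3 arrays: Myf5SOR+ Sdc4+ cells of the B6.129S4-Myf5tm3(cre)Sor /J line, Cspg4- Sdc4+ cells of the B6,FVB-Tg(Cspg4-cre)1Akik/J line, and Sdc4+ cells of CD1 mice, an outbred stock labelled Crl:CD1(ICR). The Sdc4- group held 3 arrays: B195AP+ Sdc4- cells of the B195AP-Cre line, Cspg4- Sdc4- cells of the Cspg4-cre line, and Sdc4- cells of CD1 mice. A last array held Cspg4+ cells of the Cspg4-cre line, for which no Sdc4 status is labelled. Sdc4 is syndecan-4, a surface proteoglycan found on satellite cells, and Cspg4 (NG2) is a proteoglycan of pericytes and other progenitors. In the Myf5SOR+ line Cre sits in the Myf5 locus and in the Cspg4-cre line a transgene expresses it, per the strain names; the labels give no promoter for B195AP-Cre and no Cre for CD1. No age, sex or sort protocol is given in the sources used here. Each population had 1 array, so that the arrays within an Sdc4 group differed in mouse line and the tests below measure the spread between lines.

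Chemokines act on G protein-coupled receptors of leukocytes and are grouped by the spacing of their first cysteines into CC (Ccl), CXC (Cxcl) and CX3C (Cx3cl) ligands. Inflammatory members such as Ccl2 and Cxcl1 are induced through NF-kB, and Cxcl9, Cxcl10 and Cxcl11 through interferon signalling, while homeostatic members such as Cxcl12 and Cxcl13 place cells in resting tissue. In injured muscle, chemokines of resident cells are known for recruiting neutrophils and monocytes.

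All levels below are log2 intensities minus the 75th percentile of the same array. They can be compared between arrays for 1 probe, not between genes, because probes differ in brightness. All arrays came from 1 slide, scanned in 1 run. Row 1 of that slide held the 3 Sdc4+ samples and row 2 the other 4, and so slide row and Sdc4+ status cannot be told apart. Between 45.9% and 50.8% of the spots were well above background on 6 arrays, and 57.2% on the Cspg4+ array. The B195AP+ array had a streaked region, in which 18 of the 46 chemokine probes had a spot. A gene entered the test when some probe exceeded background clearly on 3 or more arrays, which left 19760 genes, 20 of them chemokines. Because that filter can pass a gene through the group where it is high, counts over the 20 are not counts over all 34 ligands.

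The defining genes of muscle progenitors Pax7, Pax3 and Myf5 were at background on all 7 arrays, whereas all 6 fibroblast markers (Pdgfra, Col1a1, Col3a1, Dcn, Lum and Dpt) were well above background on all of them. Of the other muscle progenitor markers, Myod1 was well above background on the CD1 Sdc4- array only, Cdh15 on all 7 arrays and Des on 5, not on the Myf5SOR+ and Cspg4- Sdc4+ arrays. Cdh15 and Des were lower in all 3 Sdc4+ than in all 3 Sdc4- arrays, with differences of -1.11 (SE 0.38) and -2.22 (SE 0.67), and neither passed (limma adjusted p 0.499 and 0.470). Of all genes, 16.4% had no overlap between these groups in either direction. Only 1 of the 3 Sdc4+ values of Des was well above background, so the size of its difference is not a measured one. Of 6 pericyte markers, 3 (Pdgfrb, Notch3 and Cspg4) were well above background on all 7 arrays. So were Pecam1 and Kdr of 7 endothelium markers and Krt10 of 4 keratinocyte markers. Blood cell markers were mixed. The pan-leukocyte gene Ptprc and the macrophage genes Lyz2, Mrc1 and Cd163 were at background on all 7 arrays. Well above background on all 7 were Fcer1g and Coro1a of 5 leukocyte markers, Csf1r, Cd68, Cd14 and Itgam of 9 macrophage and myeloid markers, S100a8, Csf3r and Ly6g of 5 neutrophil markers, the T cell genes Cd3e and Cd4, the B cell gene Cd79a and the mast cell gene Tpsb2.

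Promoters of Cxcl1, Cxcl2 and Cxcl3 are shown first because these neutrophil attractants lie close together on chromosome 5 and were all highest on the same array, as given below. RefSeq promoter sequences (GRCm38.p6) matched 23 of the 34 chemokine genes. The longest run of letters that the 250 bases before the start of all 3 genes share was searched for, and it is in capitals in each sequence; each sequence ends at the base before the start.
Cxcl1, chr5:90890995-90891244, plus strand: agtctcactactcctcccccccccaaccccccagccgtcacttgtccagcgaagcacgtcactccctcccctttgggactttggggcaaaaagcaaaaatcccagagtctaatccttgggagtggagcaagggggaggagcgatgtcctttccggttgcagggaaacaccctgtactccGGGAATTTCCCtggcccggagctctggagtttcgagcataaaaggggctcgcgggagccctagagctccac
Cxcl2, chr5:90903649-90903898, plus strand: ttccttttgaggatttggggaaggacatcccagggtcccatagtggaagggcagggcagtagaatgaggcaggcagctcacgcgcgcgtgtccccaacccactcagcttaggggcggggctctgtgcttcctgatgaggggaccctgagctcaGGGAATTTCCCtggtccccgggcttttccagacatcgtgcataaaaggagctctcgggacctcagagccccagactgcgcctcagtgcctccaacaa
Cxcl3, chr5:90785851-90786100, plus strand: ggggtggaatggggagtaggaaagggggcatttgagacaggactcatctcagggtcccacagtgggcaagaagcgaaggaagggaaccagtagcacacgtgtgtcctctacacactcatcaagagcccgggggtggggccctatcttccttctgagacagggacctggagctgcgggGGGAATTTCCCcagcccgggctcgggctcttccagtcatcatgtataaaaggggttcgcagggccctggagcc
The shared run, GGGAATTTCCC, is 11 bases long. It began 71 bases before the start in Cxcl1, 97 in Cxcl2 and 73 in Cxcl3. On either strand it was found in 14 of the 32851 promoter windows of all genes, or 0.0426%, and in no other chemokine among the 23 matched. It was chosen for being shared by these 3 promoters, so its presence there is a description, and it shows no binding.

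Of the 34 ligands, 18 were well above background on all 7 arrays. Another 9 were at background on every array: Ccl3 and Ccl4, which attract monocytes and T cells; Ccl6; Ccl20, the ligand of Ccr6; Ccl22, a ligand of Ccr4; Ccl26, of the eotaxin family; and the epithelial ligands Ccl28, Cxcl15 and Cxcl17. In 5 ligands the signal was well above background on 1 or 2 arrays. They were Cxcl3 on both CD1 arrays, the interferon-induced Cxcl9 on the B195AP+ and Cspg4+ arrays, the Ccr4 ligand Ccl17 on the Cspg4- Sdc4+ and CD1 Sdc4+ arrays, and the Ccr8 ligand Ccl1 and the eotaxin Ccl24 on the Cspg4+ array. The Cspg4+ array had the largest share of spots well above background, at 57.2%. Against the mean of the other 6 arrays, Ccl24 was at least 1.29-fold higher there and Ccl1 at least 1.63-fold. For Ccl1 the signal was well above background on 1 probe, at -3.31. Its other probe was at background on every array and lay at -5.96 on the Cspg4+ array. Both probes of Cxcl9 were well above background on the same pair of arrays, at levels of -3.01 and -3.29 for one and -3.60 and -2.57 for the other.

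**Figure D1:**
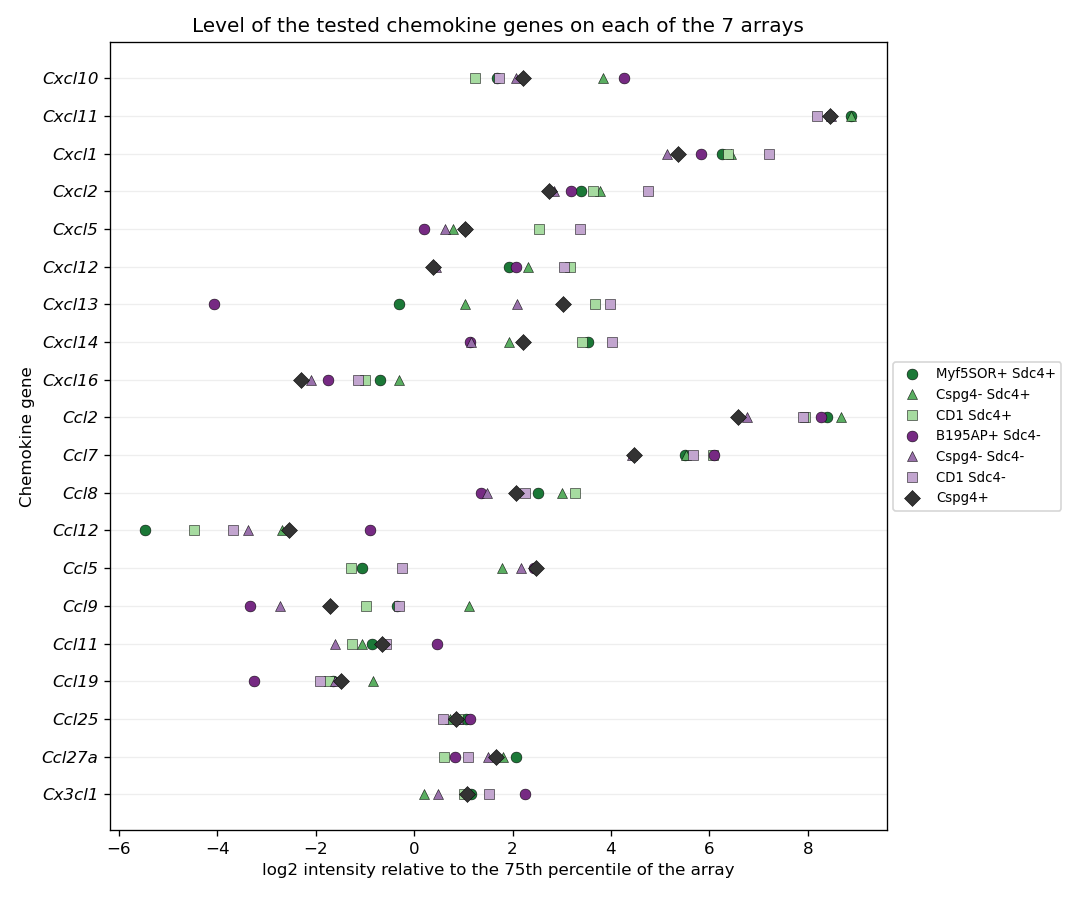
Levels of the 20 tested chemokine genes (rows) on the 7 arrays, as log2 intensity relative to the 75th percentile of each array; each point is 1 array and there are no error bars. Points are to be compared within a row: Cxcl13 runs from -4.07 on the B195AP+ array to 3.97 on the CD1 Sdc4- array, while Ccl25 stays between 0.59 and 1.14. Cxcl11 has 6 points, all saturated, because its spot was excluded on the CD1 Sdc4+ array.

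In the values that follow, the 3 Sdc4+ arrays stand in the order Myf5SOR+, Cspg4-, CD1 and the 3 Sdc4- arrays in the order B195AP+, Cspg4-, CD1. Among the ligands of monocytes, Ccl8 separated the Sdc4 groups. Its levels were 2.53, 3.002 and 3.27 in the Sdc4+ cells, 1.36, 1.49 and 2.24 in the Sdc4- cells and 2.08 in the Cspg4+ cells. Every Sdc4+ array was above every Sdc4- array. The group means were 2.93 ± 0.38 (SD, n = 3) and 1.70 ± 0.48 (SD, n = 3), and the difference of 1.24 (SE 0.32) had an adjusted p of 0.453 in limma over all 19760 genes, so it did not pass. Mouse Ccl8 is an agonist of Ccr8 and belongs with Ccl2, Ccl7, Ccl11 and Ccl12 to the monocyte chemoattractant cluster. The probes of these 5 genes lay together on chromosome 11 of mm9, the build of the files, from Ccl2 at chr11:81850650-81850709 to Ccl8 at chr11:81930108-81930167.

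Ccl2, the main attractant of Ccr2+ monocytes, was at 8.39, 8.68 and 7.95 in the Sdc4+ cells, 8.27, 6.78 and 7.90 in the Sdc4- cells and 6.59 in the Cspg4+ cells. The groups overlapped, and the low arrays were those of Cspg4- Sdc4- and Cspg4+ cells. Its probe was spotted 10 times per array, and the SD between those spots was 0.034 to 0.099, a spread within an array that leaves out the spread between samples. On the CD1 Sdc4+ array 5 of the 10 spots were saturated, so that value may be too low, and on the B195AP+ array 2 outlier spots were left out. Ccl7, which shares receptors with Ccl2, lay at 5.51, 5.52 and 6.07 in the Sdc4+ cells, 6.09, 4.42 and 5.67 in the Sdc4- cells and 4.46 in the Cspg4+ cells. The same 2 arrays were lowest. Neither gene passed the test between the Sdc4 groups (Ccl2 0.69, SE 0.42; Ccl7 0.31, SE 0.45; limma adjusted p 0.668 and 0.853).

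Ccl12, a mouse Ccr2 ligand, was near background. It was well above background on the Cspg4- Sdc4+ array (-2.68), the B195AP+ array (-0.90), the Cspg4- Sdc4- array (-3.38) and the Cspg4+ array (-2.54), and not on the other 3, among them both CD1 arrays. Ccl11, the eotaxin that attracts eosinophils through Ccr3, lay at -0.85, -1.06 and -1.25 in the Sdc4+ cells, 0.46, -1.62 and -0.56 in the Sdc4- cells and -0.65 in the Cspg4+ cells. Its highest array was that of B195AP+ cells, where its only spot was in the streaked region. Without that region its Sdc4+ minus Sdc4- difference turned from -0.48 to 0.03, neither of which passed.

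Ccl9, a Ccr1 ligand for myeloid cells, spread more widely. It lay at -0.35, 1.12 and -0.98 in the Sdc4+ cells, -3.33, -2.72 and -0.31 in the Sdc4- cells and -1.71 in the Cspg4+ cells. The CD1 Sdc4- array was among the Sdc4+ arrays and kept the groups from separating. The difference of 2.05 (SE 0.88) between the Sdc4 groups had a limma adjusted p of 0.558. It was 3.41 without both CD1 arrays and 1.45 without the streaked region, which held its spot.

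The neutrophil attractants Cxcl1, Cxcl2 and Cxcl5, ligands of Cxcr2, were highest on the CD1 Sdc4- array. Cxcl1 lay at 6.27, 6.43 and 6.39 in the Sdc4+ cells, within a narrow range, at 5.83, 5.15 and 7.21 in the Sdc4- cells, and at 5.36 in the Cspg4+ cells. Cxcl2 was at 3.40, 3.77 and 3.64, at 3.19, 2.84 and 4.76, and at 2.74. In both genes the Sdc4- arrays lay on either side of all 3 Sdc4+ arrays, and the Sdc4 difference was 0.30 (SE 0.50) for Cxcl1 and 0.01 (SE 0.49) for Cxcl2. Cxcl5 was at 1.03, 0.78 and 2.54 in the Sdc4+ cells, 0.21, 0.62 and 3.36 in the Sdc4- cells and 1.03 in the Cspg4+ cells, so that both CD1 arrays were above the other 5. Cxcl3, a ligand of the same receptor, was well above background on the 2 CD1 arrays only, at -2.32 in Sdc4+ and -1.10 in Sdc4- cells. Against the Cspg4- arrays this was at least 2.44-fold higher in Sdc4+ and at least 7.03-fold higher in Sdc4- cells; the bound sets the dim side to the higher of its own value and the lowest value well above background on its array.

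Ccl5, an interferon-inducible attractant of T cells and monocytes, was high on 4 arrays and low on 3. Its levels were -1.05, 1.78 and -1.29 in the Sdc4+ cells, 2.44, 2.18 and -0.24 in the Sdc4- cells and 2.48 in the Cspg4+ cells. The 3 arrays of the Cspg4-cre line and the B195AP+ array were high, and the Myf5SOR+ and CD1 arrays were low, whatever the Sdc4 label. The interferon regulatory factor Irf7 lay at 0.00, 2.24 and -0.82, at 2.44, 1.90 and -0.64, and at 2.60, high and low on the same arrays. Cxcl10, which attracts activated T cells through Cxcr3, was at 1.68, 3.84 and 1.24 in the Sdc4+ cells, 4.26, 2.07 and 1.73 in the Sdc4- cells and 2.22 in the Cspg4+ cells. The B195AP+ and Cspg4- Sdc4+ arrays were high. The other Cxcl10 probe, dimmer and at background on 2 arrays, was also highest on these 2, at -1.74 and -2.09. Its only spot was in the streaked region of the B195AP+ array, which gave the -1.74.

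Cxcl11 could not be read from its brighter probe. That probe was saturated on 6 arrays and excluded as an outlier spot on the CD1 Sdc4+ array, so no fold is given. It shared the following 20 bases with 6 probes of 6 other gene names, shown because they bear on how far the signal belongs to Cxcl11.
Cxcl11 probe, shared stretch: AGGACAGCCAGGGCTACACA
All of its letters are in capitals because the whole stretch is shared. Those 6 probes were not alike in brightness. Between them, 4 (Elk1, Med16, Ndor1 and Glrx2) were saturated on some array, against 0.562% of all probes, and had intensities of 58848 to 80509. The other 2, one of them named Timmdc1, had intensities of 968 to 2357, where the median over all probes was 11.0. The other Cxcl11 probe shared no 20 bases with a probe of another gene. It lay at 3.08, 2.94 and 3.06 in the Sdc4+ cells, 3.55, 3.19 and 3.07 in the Sdc4- cells and 2.51 in the Cspg4+ cells, and its Sdc4 difference was -0.24.

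Cxcl12, the homeostatic Cxcr4 ligand that retains stem and progenitor cells, was at 1.94, 2.32 and 3.17 in the Sdc4+ cells, 2.06, 0.44 and 3.05 in the Sdc4- cells and 0.39 in the Cspg4+ cells. The 2 CD1 arrays were highest, and those of Cspg4- Sdc4- and Cspg4+ cells lowest. On its other probe the CD1 arrays were again highest, at 2.50 and 2.27, while the remaining 5 lay between 0.96 and 1.38. Ackr3, the atypical receptor that scavenges Cxcl12, was at 0.81, 0.99 and 2.53, at 0.40, 0.87 and 2.58, and at 1.19, also highest on the 2 CD1 arrays. Cxcr4 was at background on all 7 arrays.

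Cxcl13, the B cell attractant of lymphoid follicles, had the widest range of the tested ligands. It lay at -0.31, 1.04 and 3.67 in the Sdc4+ cells, at -4.07, 2.08 and 3.97 in the Sdc4- cells and at 3.03 in the Cspg4+ cells. The CD1 arrays were highest, and the B195AP+ value was not above background. Cxcl14, a constitutive product of skin and stroma, was at 3.53, 1.93 and 3.41 in the Sdc4+ cells, 1.13, 1.15 and 4.02 in the Sdc4- cells and 2.21 in the Cspg4+ cells. It was high on the Myf5SOR+ and both CD1 arrays.

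Among the ligands of lymphocyte homing, Ccl25, a Ccr9 ligand of thymus and gut, stayed between 0.59 and 1.14 over the 7 arrays. Ccl27a, the Ccr10 ligand of skin, ranged from 0.61 on the CD1 Sdc4+ array to 2.07 on the Myf5SOR+ array. Ccl19, a Ccr7 ligand, lay between -1.91 and -0.84 on 6 arrays and at -3.25 on the B195AP+ array, where its other probes gave -6.01, from a spot in the streaked region, and -2.43. The Ccl19 and Ccl27a genes have near copies beside them on chromosome 4, and the Ccl27a probe used shared 20 bases with a probe named Gm20878, so these values may include the copies.

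Cx3cl1 and Cxcl16 are made as membrane proteins and shed by Adam10 and Adam17. Cxcl16, a Cxcr6 ligand, was at -0.69, -0.32 and -0.99 in the Sdc4+ cells, -1.74, -2.10 and -1.15 in the Sdc4- cells and -2.29 in the Cspg4+ cells. All Sdc4+ arrays were above all Sdc4- arrays, by 0.16 at the closest, which was the CD1 pair. The means of -0.67 ± 0.34 (SD, n = 3) and -1.67 ± 0.48 (SD, n = 3) differed by 1.00 (SE 0.31), with a limma adjusted p of 0.470. With normexp background correction the difference was 0.54, and the streaked region of the B195AP+ array held its spot. Cx3cl1 was at 1.16, 0.20 and 1.02 in the Sdc4+ cells, 2.26, 0.48 and 1.53 in the Sdc4- cells and 1.08 in the Cspg4+ cells. Its 2 lowest arrays were those of Cspg4- cells. Adam10 stayed between 2.94 and 3.10 over the 7 arrays. Adam17 was at -0.03 and -0.16 on the CD1 arrays and between -1.50 and -0.84 on the other 5.

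The comparison of Sdc4+ with Sdc4- cells asked which genes go with the syndecan-4 label. Of the 20 chemokine genes, 0 passed an adjusted p of 0.05 in limma, as did 0% of all 19760 genes. At an unadjusted p under 0.05 there were 2, Ccl8 and Cxcl16, both higher in Sdc4+ cells, against 9.18% of all genes in either direction and 3.8% in the higher direction. The same 2 of 19 genes with a value on all 6 arrays had no overlap between the groups, where 16.4% of all genes had none and 7.09% had none with Sdc4+ higher. A single gene with 3 arrays against 3 cannot reach an exact two-sided permutation p below 0.10. With Cxcl11 read from its probe that was not saturated, 14 of the 20 were higher in Sdc4+ cells and 6 were lower, where 46.9% of all genes were higher. The median difference was then 0.30 for the chemokines and -0.03 for all genes. It was -0.12 without the Cspg4- Sdc4- array and 0.70 without the CD1 Sdc4- array. With the latter left out 8 chemokines had no overlap, among them Ccl5, which was lower in Sdc4+ cells. Fewer arrays make a lack of overlap more frequent in any gene. The share of all genes in that setting is not given, so the count cannot be read as a trait of chemokines.

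**Figure D2:**
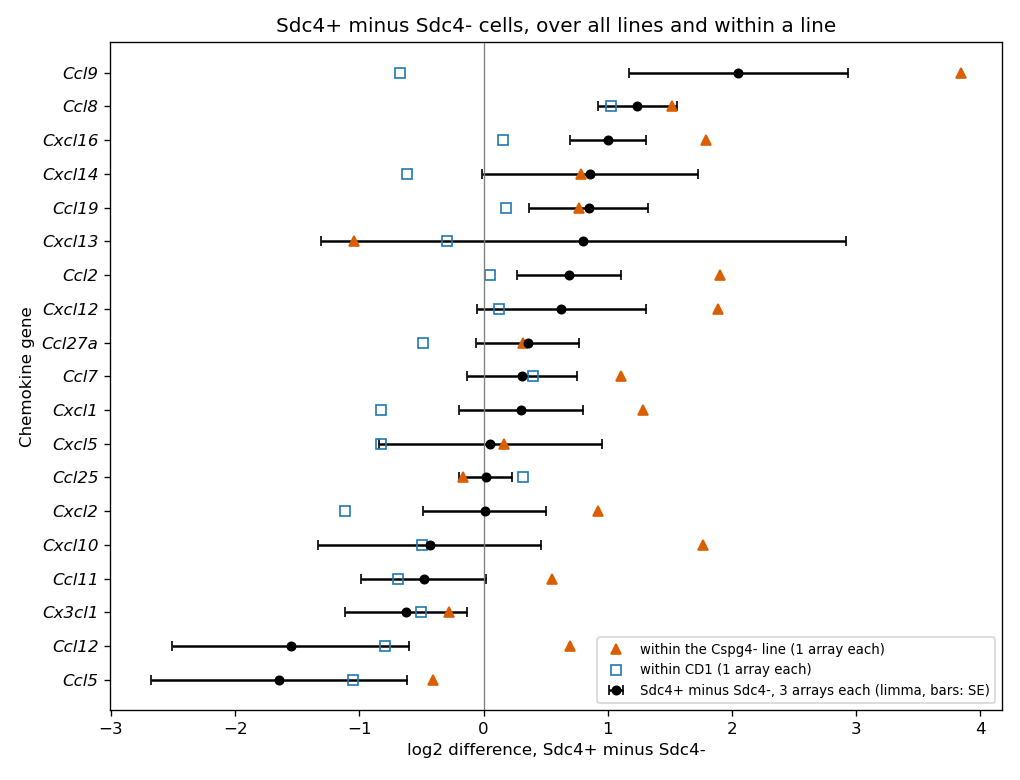
Difference between Sdc4+ and Sdc4- cells for 19 chemokine genes, in log2 units, as the limma estimate over 3 arrays each with its SE (black), within the Cspg4- line (orange triangles) and within CD1 (blue squares), the last 2 from 1 array each. Cxcl11 is not drawn because its probe was saturated. Ccl8 is above 0 in all 3 readings by at least 1.03, while Ccl9 is at 3.85 within the Cspg4- line and at -0.67 within CD1.

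Within a line the same contrast could be read without a difference in strain, from 1 array on each side and with no test. In the Cspg4- line, 9 of 20 chemokine genes were at least 2-fold apart, against 8.78% of all genes. There, 8 were higher in Sdc4+ cells (Ccl9 by 3.85, Ccl2 by 1.90, Cxcl12 by 1.88, Cxcl16 by 1.79, Cxcl10 by 1.77, Ccl8 by 1.52, Cxcl1 by 1.29 and Ccl7 by 1.103), against 4.87% of all genes, and Cxcl13 was lower (3.9% of all genes). Cxcl12 and Cxcl10 were less than 2-fold apart on their other probes, by 0.42 and 0.51, both read well above background on these 2 arrays. In CD1, 3 of 19 were at least 2-fold apart, against 4.65% of all genes: Ccl8 was higher in Sdc4+ cells by 1.03, and Cxcl2 and Ccl5 were lower, with differences of -1.11 and -1.05 (2.65% of all genes lower). Ccl8 was the only chemokine past 2-fold in the same direction in both lines, as were 1.18% of all genes. Under the processing alternatives the CD1 count ran from 0 to 5.

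CD1 and Cspg4- cells were compared in both Sdc4 fractions, a comparison chosen after the values were seen. In the Sdc4+ cells 8 of 19 chemokines were at least 2-fold apart, against 10.2% of all genes: 3 were higher in CD1 (4.6% of all genes) and 5 lower (5.63%). In the Sdc4- cells it was 12 of 20, against 9.57%, of which 11 were higher in CD1, against 5.14% of all genes, and Ccl5 lower, against 4.43%. Cxcl5, Cxcl13 and Cxcl14 were at least 2-fold higher in CD1 in both fractions, as were 1.77% of all genes. Their differences were 1.76 and 2.74 for Cxcl5, 2.64 and 1.89 for Cxcl13, and 1.48 and 2.87 for Cxcl14, in Sdc4+ and Sdc4- cells. Ccl5 was lower in CD1 in both, with differences of -3.07 and -2.42, as were 1.9% of all genes. Ccl9 went in opposite directions, at -2.11 and 2.41, as 0.496% of all genes did at this size.

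In a limma fit with the line as a fixed term, which leaves 1 residual degree of freedom before moderation, the CD1 minus Cspg4- term passed in 0 of 20 chemokines and in 14 of all genes, or 0.0709%. At an unadjusted p under 0.05 there were 8 of 20, against 15.4% of all genes. Of these, Ccl7, Cx3cl1, Cxcl5, Cxcl12, Cxcl13 and Cxcl14 were higher in CD1 (7.12% of all genes) and Ccl5 and Ccl27a lower (8.26%). Ccl5 had the smallest adjusted p of the members, 0.0705, with a term of -2.74 (SE 0.25), followed by Cxcl13 with 2.27 (SE 0.26) and 0.0886. The neutrophil marker S100a8 was at 5.19 and 5.10 on the CD1 arrays and between 2.94 and 3.26 on the other 5. The other neutrophil markers tested were lower in CD1 than in Cspg4- cells in both fractions, Ly6g by differences of -0.60 and -0.43 and Csf3r by -0.14 and -0.18. Over the 5 neutrophil markers the summed intensity, which the bright Csf3r probe dominates, was at 7.499 and 7.451 on the CD1 arrays and at 7.39 on both Cspg4- arrays. Retnlg was at background on all arrays, and S100a9 on all but the CD1 Sdc4+ array. The part of such cells in these differences was not tested. In these bulk samples a change in the share of a cell type and a change in RNA per cell cannot be told apart.

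**Figure D3:**
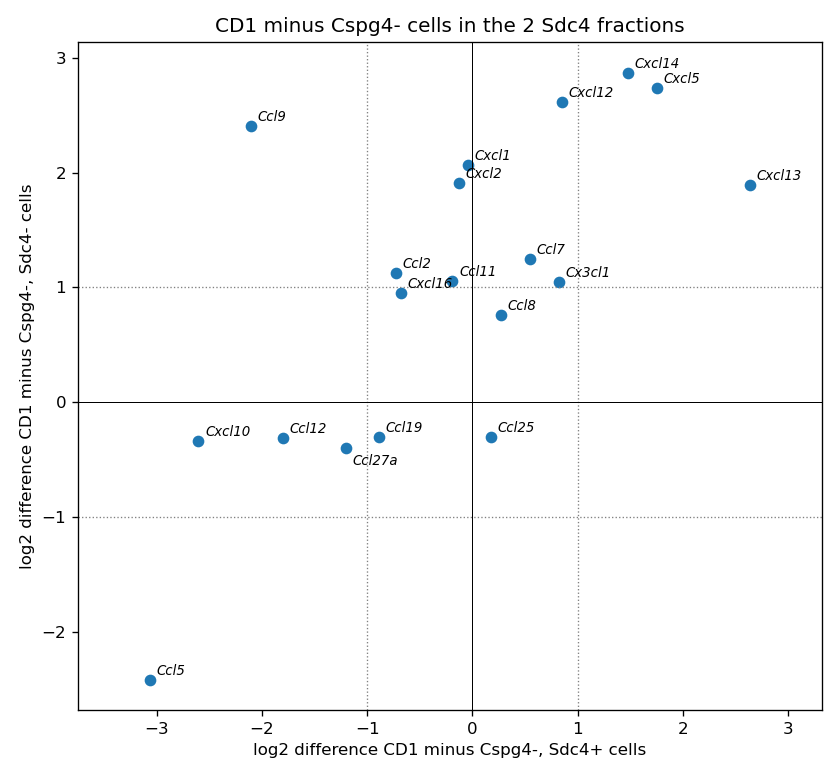
CD1 minus Cspg4- difference of 19 chemokine genes, in log2 units, in Sdc4+ cells (x axis) and Sdc4- cells (y axis); each point is 1 gene from 1 array on each side, and dotted lines mark 2-fold. Cxcl5, Cxcl13 and Cxcl14 lie past 2-fold in the upper right, Ccl5 in the lower left, and Ccl9 in the upper left at -2.11 and 2.41.

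The B195AP+ array stood apart from the other Sdc4- arrays in 11 of 20 chemokine genes, against 14.7% of all genes, from 1 array against 2. Higher by at least 2-fold were Ccl12 (2.64, with the CD1 Sdc4- value at background), Cxcl10 (2.36), Ccl11 (1.55), Ccl5 (1.46), Cx3cl1 (1.25) and Ccl7 (1.04), against 5.52% of all genes. Lower were Cxcl13, Ccl9, Cxcl5, Ccl19 and Cxcl14, against 9.17%. Another Ccl19 probe outside the streaked region, well above background on all 7 arrays, was lower by less than 2-fold, at -0.45. The remaining Ccl19 probe had its spot in that region and was at background on the B195AP+ array. Cxcl13, at background there, was at least 136.6-fold lower than the mean of the other Sdc4- arrays; its spot was outside the streaked region and no other probe of the gene was on the array. The spots of Ccl5, Ccl9, Ccl11 and Cxcl14 were inside that region. B195AP+ cells had the highest value of 6 and the lowest of 6 of the 19 genes with a value on all arrays, while 30.8% and 16.6% of all genes had their extremes there.

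The Myf5SOR+ array differed by at least 2-fold from the other Sdc4+ arrays in 3 of 19 chemokines, against 6.89% of all genes. Ccl5 (-1.30) and Cxcl13 (-2.67) were lower, against 4.06% of all genes lower by at least 2-fold. The other gene counted, Ccl12, was at background on the Myf5SOR+ and CD1 Sdc4+ arrays, so the size of its difference was not measured.

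The Cspg4+ array was compared with the mean of both Sdc4 groups, weighted equally, in the same limma fit, with its spread taken from the other arrays. Of the 20 chemokines 0 passed, as did 0% of all genes. At an unadjusted p under 0.05 there were 2, Ccl2 (-1.41, SE 0.55) and Cxcl16 (-1.13, SE 0.41), both lower, against 5.72% of all genes and 2.79% in the lower direction; their adjusted p was 0.840 and 0.776. Against the mean of the 2 Cspg4- arrays of the same line, 3 of 20 were at least 2-fold apart, against 6.27% of all genes. Ccl2 (-1.14) and Cxcl16 (-1.08) were lower (2.48% of all genes) and Cxcl13 (1.47) was higher (3.78%). Against the Cspg4- Sdc4- array alone Ccl2 and Cxcl16 each differed by only -0.19. The count at least 2-fold apart from that array was 2 of 20 (5.52% of all genes), both higher (3.62%), with Cxcl14 higher by 1.06 and Ccl9 by 1.01. Against the Cspg4- Sdc4+ array it was 9 of 20 (11.2%), 8 of them lower (4.86% of all genes), with Ccl9 at -2.83, Ccl2 at -2.09, Cxcl16 at -1.98 and Cxcl12 at -1.93, and Cxcl13 higher by 1.99 (6.36%). The other Cxcl12 probe gave -0.36, which is less than 2-fold.

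**Figure D4:**
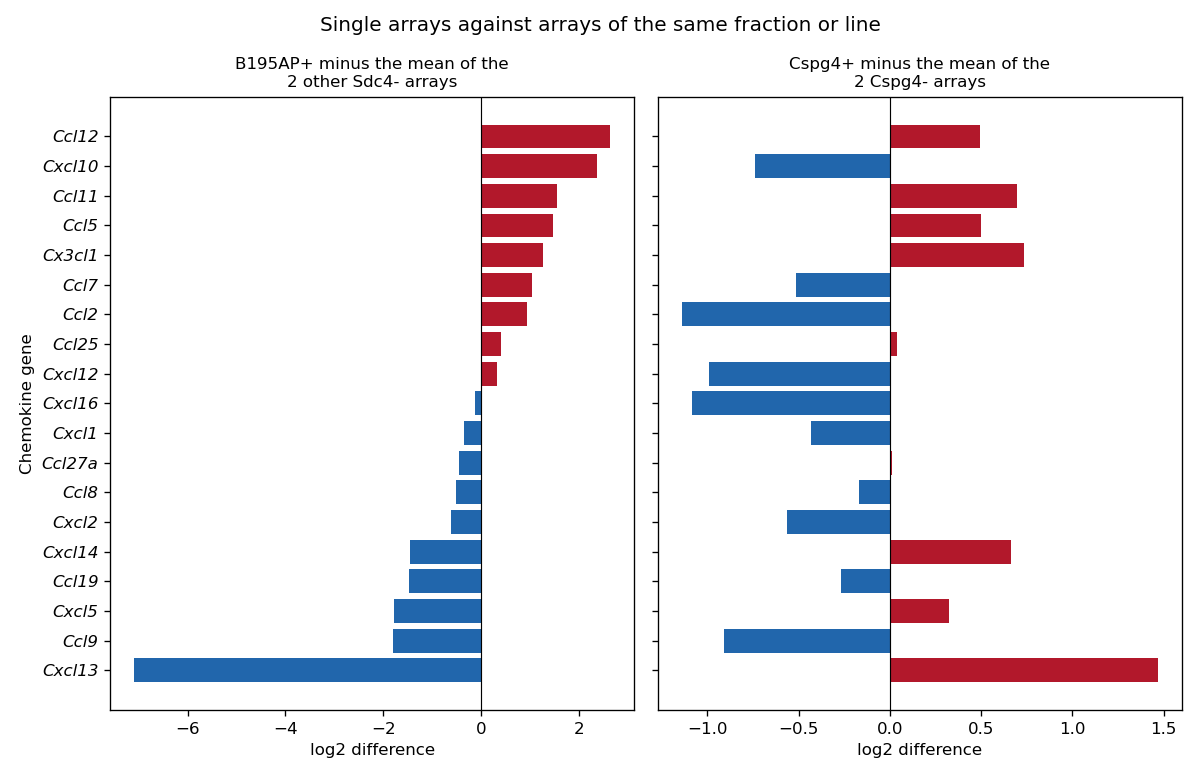
Difference of the B195AP+ array from the mean of the 2 other Sdc4- arrays (left) and of the Cspg4+ array from the mean of the 2 Cspg4- arrays (right) for 19 chemokine genes, in log2 units, with no error because 1 array stands on one side. On the left, Cxcl13 reaches -7.09, a bound set by background on the B195AP+ array, and Ccl12 2.64, with 1 of the 2 other arrays at background; on the right, where the scale is narrower, the range is from -1.14 for Ccl2 to 1.47 for Cxcl13.

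Among the receptors of these ligands, Ccr1, Ccr2, Cxcr1 and Cxcr4 were at background on all 7 arrays. Ccr8, the receptor of Ccl1 and Ccl8, was well above background on all 7, between 0.10 and 1.26, and its Sdc4 difference was 0.24 (SE 0.35). Of the 3 receptors tested, 0 passed. Cxcr2, the receptor of Cxcl1, Cxcl2 and Cxcl5, was above background on the Cspg4+ array only. On that array 57.2% of spots were well above background, the largest share of the 7. Of 5 atypical receptors tested 0 passed. Among them 1 had no overlap, where 16.4% of all genes had none and 7.09% had none with Sdc4+ higher. This was Ccrl2, which binds chemerin. It was higher in all 3 Sdc4+ arrays (-0.69, -0.36 and -1.35) than in the Sdc4- arrays (-1.99, -2.16 and -1.72), by 1.16 (SE 0.29, limma adjusted p 0.453).

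Of the 16 genes listed as inducers of chemokines, 10 were tested and 0 passed between the Sdc4 groups; 3 had no overlap, all higher in Sdc4+ cells, where 16.4% of all genes had none and 7.09% had none with Sdc4+ higher. Tnf, the cytokine that activates NF-kB, exceeded background clearly on 5 arrays, not on the B195AP+ and Cspg4- Sdc4- arrays, and lay at -1.91, 0.39 and -0.61 in the Sdc4+ cells, at -5.13, -3.95 and -2.49 in the Sdc4- cells and at -3.62 in the Cspg4+ cells, with a fitted difference of 3.15 (SE 0.81, limma adjusted p 0.453). Because 2 of the 3 Sdc4- values were at background, that size is not a measured one. Irf1, an interferon and NF-kB target, was at 5.68, 5.68 and 5.78 against 4.10, 3.68 and 4.95, and at 3.42 in the Cspg4+ cells, a difference of 1.47 (SE 0.33, limma adjusted p 0.433). The NF-kB subunit Relb was at 2.82, 3.13 and 2.91 against 2.19, 1.71 and 2.80, a difference of 0.72 (SE 0.30). In each of these 3 the CD1 Sdc4- array was the highest of the Sdc4- arrays. The cytokine Il6 lay at 2.69, 2.34 and 2.92 in the Sdc4+ cells, 1.97, 1.09 and 3.49 in the Sdc4- cells and 0.88 in the Cspg4+ cells, with its highest array, that of CD1 Sdc4- cells, the same as for Cxcl1, Cxcl2, Cxcl3 and Cxcl5. Another 5 genes of the list, Il1b among them, were at background on all arrays.

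Among the macrophage and myeloid markers, 4 of 9 were well above background on all arrays. Csf1r, the receptor of macrophage colony-stimulating factor, was at 2.44, 2.61 and 2.94 in the Sdc4+ cells and 1.76, 1.87 and 2.21 in the Sdc4- cells, without overlap, as Ccl8 was, a difference of 0.72 (SE 0.22, limma adjusted p 0.470). The other 4 tested markers overlapped between the groups, with differences of 0.57 for Cd68, 0.68 for Aif1, -0.61 for Cd14 and -0.11 for Itgam. Of all genes, 16.4% had no overlap, and 7.09% had none with Sdc4+ higher. The summed intensity of the list, which the bright Itgam probe dominates, ran from 5.35 to 5.89 in Sdc4+ and from 5.35 to 5.93 in Sdc4- cells. The part of myeloid cells in the Ccl8 difference was not tested; Ptprc, Lyz2, Mrc1 and Cd163 were at background on all 7 arrays.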

How the data were processed

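Spot intensity in the deposited array files, per the file headers, came from Agilent Feature Extraction (version 11.5.1.1), which placed probes on mm9. A deposited table of log2 values, tied to lumi by the submitters' processing notes and of unstated centring, served only as an alternative. Outlier spots were set to missing, spots of a probe averaged as log2 values, the 75th percentile of each array subtracted, and each gene represented by its brightest probe that passed the background filter. Group means of the 3 groups were estimated in limma 3.58.1 under R 4.3.3, over 19760 genes, with Benjamini-Hochberg adjustment at 0.05; the fit was checked on simulated data. With 1 array on a side, genes at least 2-fold apart were counted without a test. All 34 ligands are accounted for, and those above background somewhere may be named with values. The members, the lists and the comparison of CD1 with Cspg4- cells were chosen with earlier results of these data known. From the receptor, inducer and protease lists up to 6 genes each were named, by level or lack of overlap; those outside that rule, such as Cxcr2, Irf7, Il6, Relb and Il1b, were chosen after their values were seen, as were the cell type markers, more than 6 in the macrophage list, and the promoter comparison. The number of arrays limits the precision. One gene of the receptor list is not reported here.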

Additional observations from a re-analysis of the deposited data

Results flagged for a closer look

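Ccl9 changed in opposite directions between CD1 and Cspg4- cells in the 2 Sdc4 fractions. CD1 minus Cspg4- was -2.11 on the log2 scale in Sdc4+ cells and 2.41 in Sdc4- cells, from 1 array on each side. The difference between the fractions was not tested, and 0.496% of all tested genes were at least 2-fold apart in opposite directions in this way.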

How the results depend on the processing

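Each result was recomputed under up to 20 alternatives. The calls between the Sdc4 groups had 20. The counts of chemokines 2-fold apart between CD1 and Cspg4- cells in both fractions had 12. No paired analysis was possible by replicate number, because each population has a single array. The Cspg4- and CD1 lines each had both Sdc4 fractions, and the line as a fixed block pairs these 4 arrays. As a random block the line had a consensus correlation of 0.576. Chemokines called between the Sdc4 groups stayed at 0 in all 20, with a smallest adjusted p of 0.131, for Ccl8 with the line as a random block. Of the 20 member differences, 9 kept their sign throughout. The random block called 3 genes overall in the Sdc4 contrast and 26 in the Cspg4+ contrast, and the series table called 11 in the latter. Without a filter on dim probes the Cspg4+ contrast called 2952 genes, 2 of them chemokines (smallest adjusted p 0.0266), 4 chemokines had no overlap and 5 were 2-fold apart within CD1. This setting without a filter held 34947 genes, 34 of them chemokines, and overlap could be read in 33 of these. The shares of all genes without overlap or 2-fold apart in it are not given. The count of chemokines 2-fold apart within CD1 was 1 with normexp correction, 0 in the series table and 5 with the mean of a gene's probes. Chemokines without overlap numbered 1 of 12 without the streaked region, 11 without both CD1 arrays and 2 to 8 when 1 array was left out. With fewer arrays a lack of overlap is more frequent in any gene. The shares of all genes in these settings are not given, so the counts cannot be read as a trait of chemokines. The median difference ran from -0.03 to 0.70 in the fits with 1 array left out, which kept the saturated Cxcl11 probe. With the other Cxcl11 probe it was -0.12 without the Cspg4- Sdc4- array.

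Signs turned as follows, in Sdc4+ minus Sdc4- log2 differences none of which passed. Array weights gave 0.55 for Cxcl10, -0.95 for Cxcl13, -0.10 for Cxcl2 and -0.64 for Cxcl5. The fixed line block and the fit without the Myf5SOR+ and B195AP+ arrays both gave -0.086 for Ccl27a, 0.64 for Cxcl10, -0.67 for Cxcl13, -0.094 for Cxcl2 and -0.33 for Cxcl5. The random block gave 0.076 for Cxcl10, -0.040 for Cxcl2 and -0.13 for Cxcl5. The series table gave -0.19 for Cxcl11 and -0.012 for Cxcl2, and normexp gave -0.00445 for Ccl25, -0.055 for Cxcl2 and -0.016 for Cxcl5. The mean of probes gave -0.052 for Ccl25 and -0.84 for Cxcl11. The other Cxcl11 probe, also the one used when all 7 arrays had to be well above background, gave -0.24. Ccl25 was -0.13 without both CD1 arrays and Ccl11 was 0.034 without the streaked region. Leaving out 1 array at a time gave -1.004 to 0.034 for Ccl11, -0.12 to 0.15 for Ccl25, -0.18 to 0.66 for Ccl7, -0.16 to 0.88 for Cxcl1, -1.23 to 0.35 for Cxcl10, -0.081 to 1.23 for Cxcl12, -1.56 to 2.46 for Cxcl13, -0.37 to 0.59 for Cxcl2 and -0.54 to 1.03 for Cxcl5. Apart from the streaked region, saturation and the alternatives that use fewer arrays or genes, the cause of these shifts was not tested.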
